A study of Salmo salar with 58 samples.

Results

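The genes alas2 (NCBI GeneID 106572153), cpox (GeneID 106573996) and ppox (GeneID 100380603) encode 3 enzymes of heme synthesis, and they were the rows of the deposited expression table whose NCBI Salmo salar symbol is alas2, cpox or ppox. They made up 3 of the 26239 genes in that table, and each symbol matched a single gene. The libraries came from liver and distal intestine of Atlantic salmon exposed in vivo for 12 h to a mycotoxin, which addresses the acute response of both organs to enniatin B and beauvericin. In each tissue the exposed groups were low-dose enniatin B (ENNB_Lo, 6 libraries), high-dose enniatin B (ENNB_Hi, 6), low-dose beauvericin (BEA_Lo, 5) and high-dose beauvericin (BEA_Hi, 6), set against controls (Ctrl, 6). Polyadenylated RNA was sequenced in all 58 libraries. The labels give the doses in words only, give no strain or age, and do not say that replicate numbers stand for separate fish, so p-values measure the spread between libraries, part of which may be technical. The labels do not state that blood was removed from the tissues.

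Heme is the iron-holding ring that carries oxygen in hemoglobin and electrons in cytochromes. Its synthesis starts in the mitochondrion, where 5-aminolevulinate synthase joins glycine to succinyl-CoA, passes through the cytosol, and ends in the mitochondrion. The gene alas2 encodes the form of the first enzyme that developing red cells use, whereas liver and other tissues rely mainly on alas1. The late mitochondrial steps are run by coproporphyrinogen oxidase (cpox), protoporphyrinogen oxidase (ppox) and ferrochelatase (fech), which inserts the iron. In fish, red cells are nucleated and keep RNA in the circulation. Enniatin B and beauvericin are cyclic depsipeptides made by Fusarium moulds that carry ions across membranes. Enniatin B holds N-methylvaline where beauvericin holds N-methylphenylalanine.

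Library depth was 30.7 to 61.7 M reads in liver and 23.3 to 40.6 M reads in intestine. The albumin gene alb2 had 1931520 to 3288060 normalized counts in liver, against 0 to 38.5 in all 29 intestine libraries. Intestine controls 5 and 6 were within that range, at 6.31 and 22.5. In cell markers these controls stood apart from the other intestine libraries: the enterocyte sterol transporter npc1l1 had 1.4 and 1.8 normalized counts there, and at least 3719 in each of the other 27. In those controls the intestinal factor cdx1b had 0 and 19.8 normalized counts, and smooth muscle actin acta2 had 189895 and 223753, the highest values in the tissue. The enterocyte marker slc15a1 had 12.6 and 0.9 there, but also 9.71 in low enniatin B replicate 3. Summed over 10 measured enterocyte markers, every control intestine library had at least 12031 normalized counts (median 131879). The median correlation of controls 5 and 6 with the other intestine libraries was 0.646 and 0.659. Low enniatin B replicate 3 had 0.882 and every other library at least 0.9445. The estimates for the 3 genes against the intestine controls are therefore given with and without controls 5 and 6. Levels are the authors' size-factor normalized counts and are compared within a gene only, because no transcript lengths were used. Differences are limma estimates on the log2(normalized count + 2) scale, ± standard error (SE) or with a 95% interval. A call is an adjusted p under 0.05 (Benjamini-Hochberg) over all genes tested.

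Limma called none of alas2, cpox and ppox in any exposed group against its controls. DESeq2 on the recovered reads called alas2 in intestine after low beauvericin, where it called 1598 of 25601 genes and limma 4. The largest estimate in each tissue belonged to alas2 after low beauvericin, at -1.17 in liver and -1.21 in intestine. By limma, none of the 48 tests of the 3 genes against controls, between toxins or between doses within a tissue passed, and 7 had an unadjusted limma p under 0.05. Among all genes 7.77% of tests in these 16 comparisons had such a p. In liver against controls, limma called 0% of 25157 genes after low enniatin B, 0% after high enniatin B, 0.127% after low beauvericin and 0% after high beauvericin. In intestine it called 0%, 0%, 0.0156% and 0.00391% of 25601 genes in the same order. At an unadjusted p under 0.05 those shares were 3.64%, 2.77%, 8.27% and 9.44% in liver and 17.5%, 17.7%, 18.7% and 16.9% in intestine. The 4 comparisons within a tissue share the same control libraries.

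In liver, alas2 had 1083 to 3830 normalized counts after low enniatin B (median 2170), against 1781 to 8029 in controls (median 4856). All 6 of those exposed libraries lay below the control median, 1 lay below every control, and the groups overlapped. The difference was -1.02 ± 0.39, with an interval of -1.83 to -0.21, an unadjusted p of 0.0152 and a limma adjusted p of 0.9998. After low beauvericin the 5 libraries had 1649, 1486, 2391, 2119 and 2276 normalized counts. These were the most tightly grouped of the liver libraries, all below the control median and 2 of them below every control. The difference was -1.17 ± 0.41 (interval -2.02 to -0.32), with an unadjusted p of 0.0087 and a limma adjusted p of 0.469.

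The high doses lay nearer to the controls. High enniatin B libraries ran between 1027 and 5422 normalized counts of alas2 (median 3167), 5 of 6 below the control median, with a difference of -0.64 ± 0.39 (limma adjusted p = 0.9997). High beauvericin libraries ran between 1354 and 5414 (median 3428), 4 of 6 below the control median, with a difference of -0.45 ± 0.39 (limma adjusted p = 0.728). Without their replicate 4, the lowest library of each group, the high enniatin B estimate was -0.35 and the high beauvericin estimate -0.20. Over all single libraries left out, the high enniatin B estimate ran as low as -0.90. Without control 4 the high beauvericin estimate was -0.27, and without control 2 it was -0.71. Across the exposed groups, 20 of 23 liver libraries lay below the control median and 5 below the lowest control. The control libraries themselves differed 4.51-fold between the lowest and the highest.

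**Figure D1:**
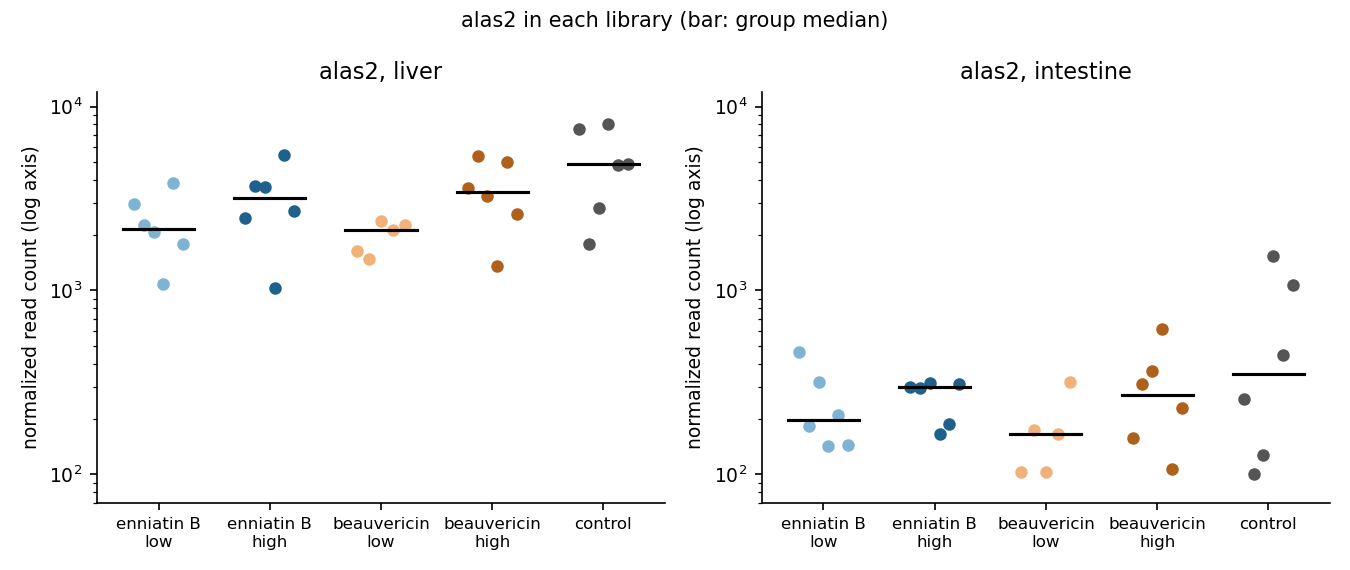
Normalized counts of alas2 on a log axis in every library, liver and distal intestine, exposed groups to the left of the controls; points are libraries and bars are group medians. Control libraries span 1781 to 8029 in liver and 99.8 to 1540 in intestine, and the low beauvericin libraries sit between 1486 and 2391 in liver.

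Intestine held less alas2, and the controls were widely scattered. The gene had 142 to 465 normalized counts after low enniatin B (median 197) and 166 to 313 after high enniatin B (median 297), against 99.8 to 1540 in controls (median 352). After low beauvericin the 5 libraries had 103, 175, 103, 165 and 320 normalized counts, and after high beauvericin the range was 107 to 614 (median 269). Of the exposed libraries, 20 of 23 lay below the control median and 0 below the lowest control. The 4 controls other than 5 and 6 had a median of 193, and 11 of 23 exposed libraries lay below it. The highest control, replicate 4, held 15.4 times the normalized count of the lowest, replicate 2.

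The differences from intestine controls were -0.72 ± 0.52 for low enniatin B and -0.53 for high enniatin B. They were -1.21 ± 0.55 for low beauvericin (interval -2.34 to -0.08, unadjusted p = 0.0371, limma adjusted p = 0.242) and -0.53 for high beauvericin. Without controls 5 and 6 the estimates in that order became -0.27, -0.08, -0.75 and -0.07, and the limma adjusted p for low beauvericin was 0.764. Without control 4 alone they were -0.31, -0.117, -0.80 and -0.116, and over all single libraries left out they ran as low as -1.10, -0.90, -1.58 and -0.90, without control 2. On the recovered read counts DESeq2 gave low beauvericin -1.78 with an adjusted p of 0.0198 and called alas2. There edgeR gave -1.77 with an adjusted p of 0.0837. In that comparison DESeq2 called 1598 genes and edgeR 371, against 4 by limma. DESeq2 and edgeR were not refitted without controls 5 and 6. The adjusted p of alas2 after low beauvericin in intestine ran between 0.020 and 0.764 over its alternatives.

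The order of the alas2 group means was the same in the tissues. In liver the mean was 1984 ± 397 normalized counts after low beauvericin, 2330 ± 954 after low enniatin B, 3161 ± 1475 after high enniatin B and 3533 ± 1504 after high beauvericin, and 4977 ± 2478 in controls (SD, n = 6 except 5 for low beauvericin). In intestine the corresponding means were 173 ± 88.5, 244 ± 126, 262 ± 66.2 and 297 ± 182, and 590 ± 586 in controls (506 ± 693 without controls 5 and 6, SD, n = 4). By medians, high enniatin B stood above high beauvericin in intestine. Without controls 5 and 6 the intestine control median was 193, so the controls were not highest by medians. It lay below low enniatin B (197), high beauvericin (269) and high enniatin B (297), and above low beauvericin (165). No neighbours in this order differed by a limma call, and each step was smaller than the SD of the higher group.

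Doses and toxins were then compared directly for alas2. The high dose was above the low dose in each case: by 0.38 (interval -0.43 to 1.19) for enniatin B and 0.72 (-0.12 to 1.57) for beauvericin in liver, and by 0.20 (-0.88 to 1.27) and 0.68 (-0.45 to 1.81) in intestine. None of these differences passed, and limma called 0% of genes between doses of either toxin in liver (0% and 0%) and in intestine (0% and 0%). Between enniatin B and beauvericin at doses with the same label, alas2 differed by 0.15 (-0.70 to 0.995) at the low dose and -0.19 (-0.998 to 0.62) at the high dose in liver. In intestine those differences were 0.48 (-0.65 to 1.61) and -0.001 (-1.08 to 1.08). These intervals reach as far as 1.81 log2 units, and the labels do not say that doses of the same name were equal.

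The late enzymes cpox and ppox were tighter than alas2 in liver. After high beauvericin cpox had 388 to 549 normalized counts (median 510), against 289 to 443 in controls (median 401), and 5 of 6 exposed libraries exceeded every control. The difference was 0.38 ± 0.14 (interval 0.09 to 0.67, a ratio of 1.30), with an unadjusted p of 0.0111 and a limma adjusted p of 0.416. The next enzyme of the route, ppox, had 522 to 726 normalized counts after high beauvericin (median 635), against 375 to 576 in controls (median 546). Again 5 of 6 exposed libraries exceeded every control, with a difference of 0.27 ± 0.12 (interval 0.03 to 0.50, a ratio of 1.204), an unadjusted p of 0.0264 and a limma adjusted p of 0.480.

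The other exposed liver groups stood close to the controls for both enzymes. The cpox medians were 366 after low and 363 after high enniatin B, and the low beauvericin libraries had 396, 381, 365, 536 and 407 normalized counts, with differences from controls of -0.07, -0.11 and 0.14. The ppox medians were 509 and 498 after low and high enniatin B, and the low beauvericin libraries had 569, 504, 591, 480 and 529, with differences of -0.09, -0.08 and 0.04.

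**Figure D2:**
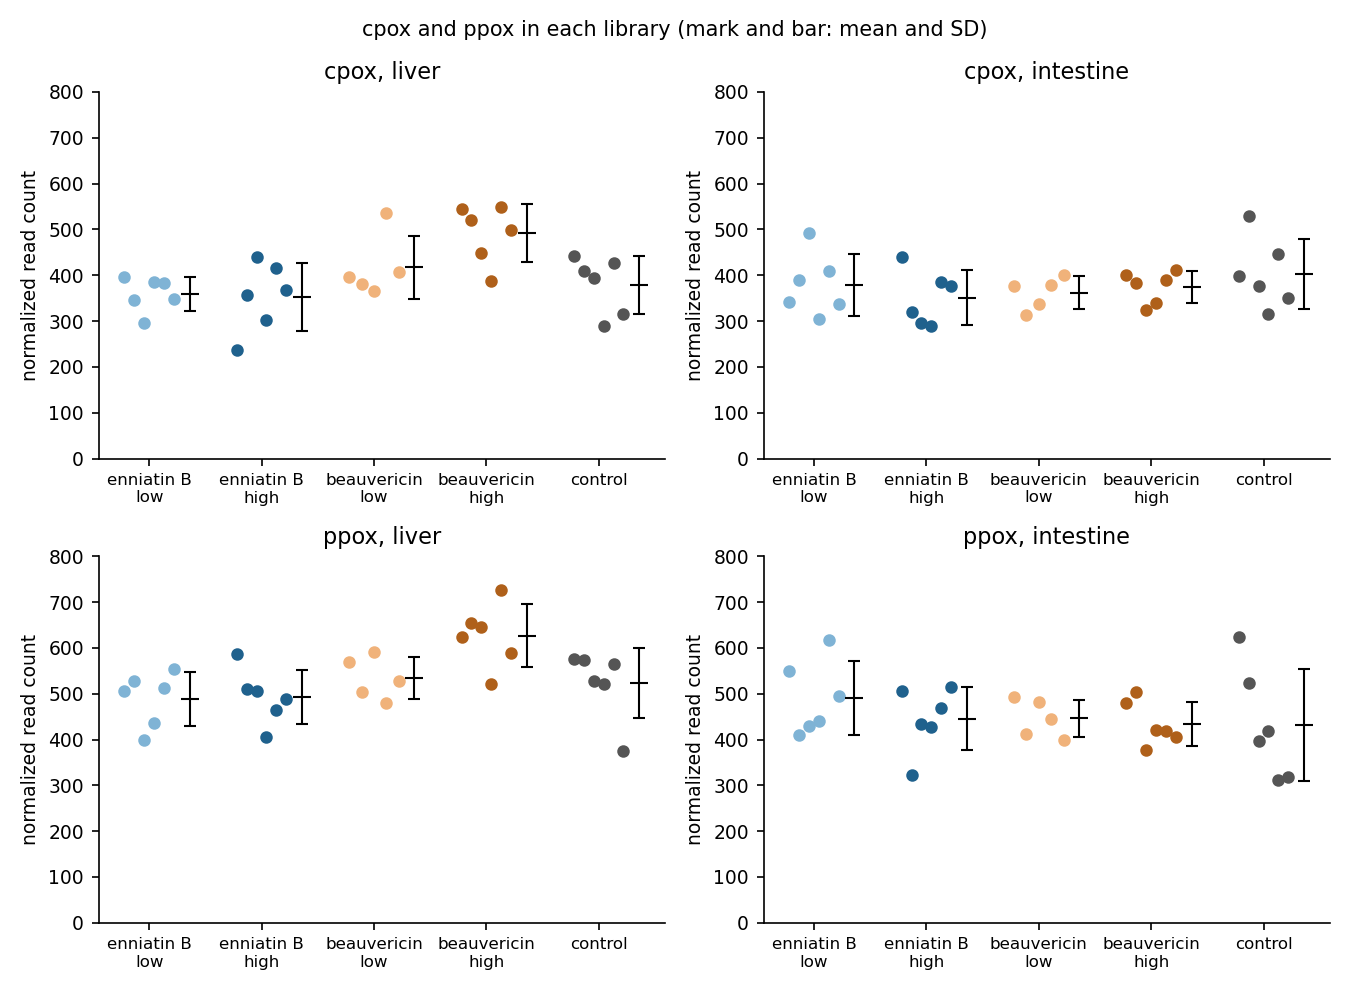
Normalized counts of cpox and ppox in every library of liver and distal intestine, exposed groups to the left of the controls; points are libraries, and the mark and bar beside them are the group mean and SD. In liver 5 of 6 high beauvericin libraries lie above every control for each gene, and in intestine the groups overlap.

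At the dose labelled high, the estimates between the toxins for the late enzymes in liver were larger than those of either toxin against controls. High enniatin B libraries had 238 to 440 normalized counts of cpox, against 388 to 549 for high beauvericin, and 4 of 6 lay below every high beauvericin library. The difference was -0.49 ± 0.14 (interval -0.78 to -0.21, unadjusted p = 0.0014, limma adjusted p = 0.288). For ppox, 406 to 586 normalized counts after high enniatin B stood against 522 to 726 after high beauvericin, and 5 of 6 lay below every high beauvericin library. The difference was -0.34 ± 0.12 (interval -0.58 to -0.11, unadjusted p = 0.0053, limma adjusted p = 0.333). In this comparison 10.3% of all genes had an unadjusted p under 0.05 and limma called 0%. The deepest liver libraries were replicates 1 and 3 of high beauvericin, with 57.8 and 61.7 M reads. The rest of that group had 35.3 to 37.4 M reads, and other liver groups had at most 39.9 M reads. With library total as a covariate the differences were -0.47 for cpox and -0.33 for ppox. Without replicates 1 and 3 of high beauvericin, an alternative chosen after the data were seen, they were -0.48 and -0.33. At the low dose limma called 0% of liver genes between the toxins, and none of the 3 genes had an unadjusted p under 0.05.

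In intestine neither late enzyme separated the groups. The medians of cpox were 365, 348, 377.6 and 386 normalized counts after low enniatin B, high enniatin B, low beauvericin and high beauvericin, against 387 in controls, and the differences were -0.08, -0.19, -0.14 and -0.09, or -0.09, -0.20, -0.14 and -0.09 without controls 5 and 6. The medians of ppox were 468, 452, 446 and 419 in that order, against 408 in controls, and the differences were 0.21, 0.07, 0.09 and 0.04. Without intestine controls 5 and 6 the ppox differences became 0.006, -0.13, -0.12 and -0.16, so 3 of them changed sign. Between low enniatin B and low beauvericin limma called 0% of intestine genes, and between the high doses 0.00391%, none of them alas2, cpox or ppox.

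**Figure D3:**
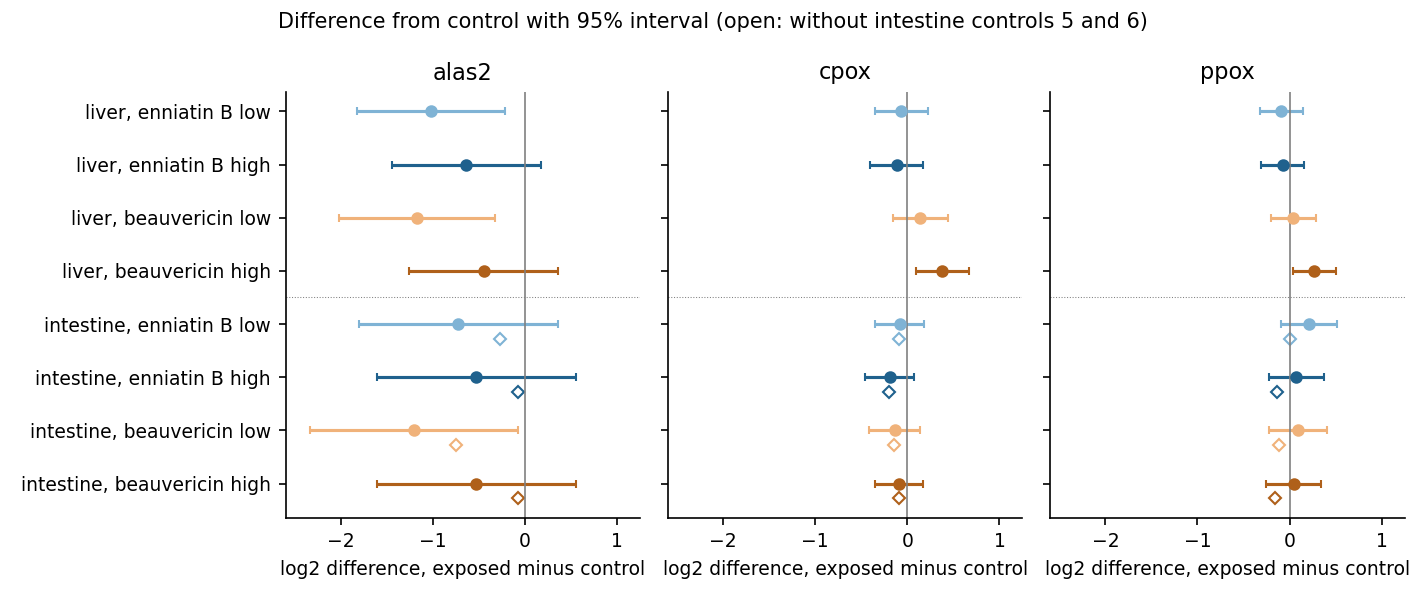
Limma differences from controls (log2, exposed minus control) with 95% intervals for alas2, cpox and ppox in liver and distal intestine, by exposed group; open diamonds are intestine estimates without controls 5 and 6. All 8 alas2 estimates lie below 0, the liver cpox and ppox intervals exclude 0 after high beauvericin alone, and no difference passed the adjusted threshold.

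The tissues themselves differed most in alas2. Liver libraries all carry the same description prefix and intestine libraries a different prefix, and the labels do not say what it stands for. A difference between those series cannot be told apart from a difference between tissues. Control livers had 1781 to 8029 normalized counts and control intestines 99.8 to 1540, without overlap, and the fitted ratio of liver to intestine was 11.9 (interval 6.18 to 22.9; log2 difference 3.57 ± 0.47, limma adjusted p = 3.02e-09). Limma called 68.6% of 26239 genes between the tissues, and 16.2% were higher in liver without overlap. Size factors were 0.56 to 0.75 in control livers and 1.11 to 1.77 in control intestines, so differences between tissues depend on this scaling. No alternative left scaling out. Before scaling, alas2 had 1338 to 4979 reads in control livers and 142 to 2303 in control intestines. The alas2 difference passed under all alternatives, at 3.07 to 4.02, the upper value without intestine controls 5 and 6. The gene ppox was higher in control liver, with a mean of 523 ± 76.3 normalized counts, than in control intestine at 432 ± 122 (SD, n = 6 each), a difference of 0.30 ± 0.13 with a limma adjusted p of 0.0330 and overlapping groups. That call was lost without intestine controls 5 and 6, at 0.099 with a limma adjusted p of 0.506. It was also lost when liver control 1, 2 or 5, or intestine control 3, 5 or 6, was left out alone. Before scaling, ppox had 232 to 431 reads in control livers and 353 to 1058 in control intestines. The gene cpox differed by -0.08 (interval -0.35 to 0.18) between control liver and control intestine, and by -0.09 without those 2 libraries.

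Whether an exposure moved a gene differently in liver and in intestine was tested as a difference of differences. None of the 12 tests of the 3 genes passed. The smallest p belonged to cpox after high beauvericin, where the change in liver exceeded that in intestine by 0.47 ± 0.19 (interval 0.09 to 0.85, unadjusted p = 0.0159, limma adjusted p = 0.332), in a comparison where 12.5% of all genes had an unadjusted p under 0.05. Limma called 0% of genes for low enniatin B, 0% for high enniatin B, 0.0267% for low beauvericin and 0.00381% for high beauvericin.

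The 3 genes differed in how far libraries of 1 group spread. The within-group SD of alas2 was 0.70 log2 units in liver and 0.95 in intestine, more than in 87.1% and 92.1% of genes. For cpox it was 0.24 and 0.22, and for ppox 0.18 and 0.25, all below the 0.36 of the median gene in liver. The values rested on 142 to 4979 reads per library for alas2, 144 to 761 for cpox and 232 to 1058 for ppox. Within groups no pair of the enzymes had a correlation that passed: over 29 liver libraries Pearson's r was 0.28 for alas2 with cpox, 0.32 for alas2 with ppox and 0.21 for cpox with ppox. In intestine the same pairs had -0.29, -0.30 and 0.26, or -0.27, -0.15 and 0.33 without controls 5 and 6. With all libraries Spearman's rho for these pairs was 0.36, 0.27 and 0.19 in liver and -0.17, -0.24 and 0.23 in intestine. Over these 6 pairs with all libraries, the adjusted permutation p (two-sided, 100000 resamples) was 0.330 for every Pearson and 0.425 for every Spearman value. Without the 2 libraries farthest from the median of the first-named gene, r was 0.32, 0.32 and 0.46 in liver. In intestine r was then 0.0093, -0.26 and 0.19, so the sign for alas2 with cpox there rested on controls 2 and 4. With intestine controls 5 and 6 left out as well, r was 0.083, 0.010 and 0.26. The sign for alas2 with ppox in intestine was therefore not stable either.

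Of 11 listed heme synthesis symbols 7 were measured, the 3 genes and 4 others: alad, which joins the first intermediates, hmbsa and hmbsb, the salmon copies of hydroxymethylbilane synthase, and fech. The symbols alas1, uros and urod were not found, so the form of the first enzyme that liver mainly uses is not covered. None of the 64 tests of the 4 other genes within a tissue passed, and 5 had an unadjusted limma p under 0.05, where 7.77% of tests over all genes did. In liver the median difference of the 4 genes from controls was -0.17, -0.13, -0.03 and 0.13 after low enniatin B, high enniatin B, low beauvericin and high beauvericin, against 0.003 to 0.007 for all genes. In intestine it was 0.27, 0.18, 0.25 and 0.32, against 0.01. Without intestine controls 5 and 6 it was -0.03, -0.01, -0.04 and 0.13 in that order. The smallest p-values were those of fech in intestine after low enniatin B (0.42 ± 0.16, limma adjusted p = 0.214), hmbsa in intestine after high beauvericin (0.35 ± 0.13, adjusted p = 0.270) and hmbsb in liver after low beauvericin (0.65 ± 0.26, adjusted p = 0.534). These estimates are with all controls. For hmbsa, controls 5 and 6 were the lowest intestine controls, at 112 and 81.0 normalized counts.

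**Figure D4:**
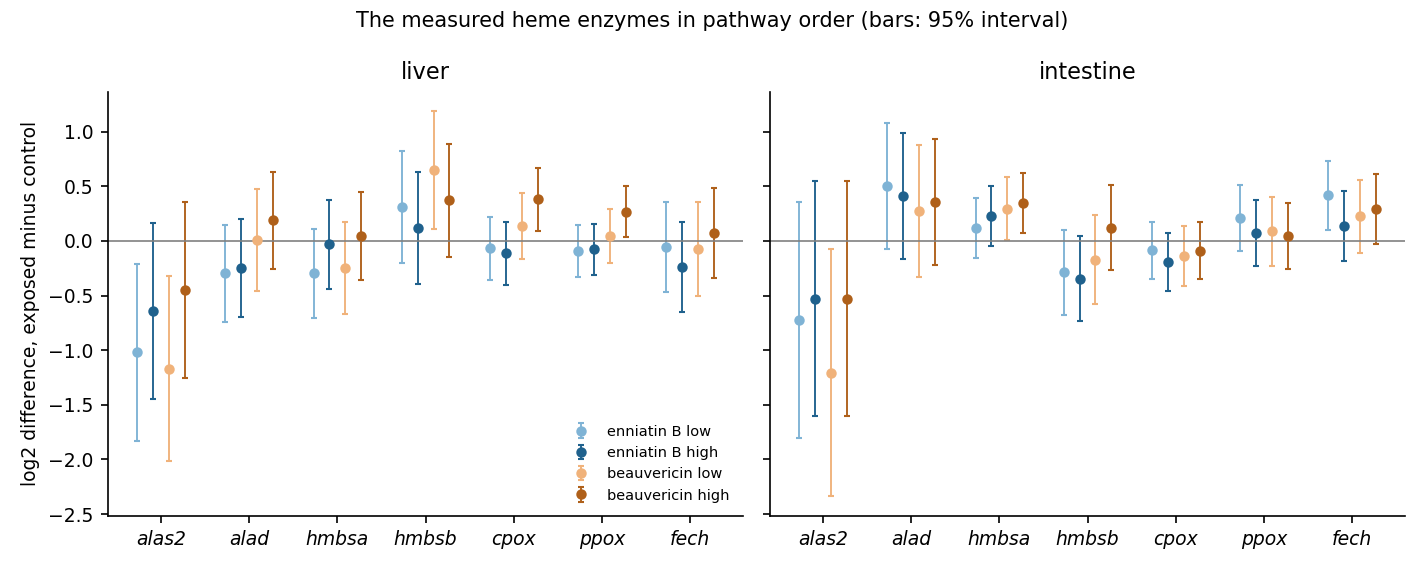
Limma differences from controls (log2, exposed minus control) for the 7 measured heme synthesis enzymes in the order of the pathway, by tissue and exposed group; points are estimates and bars 95% intervals. With all controls, the lowest estimate of every exposed group is that of alas2, with -1.17 in liver and -1.21 in intestine after low beauvericin. None passed the adjusted threshold. Without the intestine controls that went against their tissue label, alas2 is not the lowest in intestine after low enniatin B or at the high doses. By group means of the log2 values, hmbsb then lies below alas2 after low enniatin B. At the high doses ppox has -0.13 against -0.08 for alas2 after high enniatin B, and -0.16 against -0.07 after high beauvericin. After high enniatin B, hmbsb and cpox lie lower than ppox.

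Between control liver and control intestine, fech was higher in liver by 1.22 ± 0.18, whereas alad differed by -0.80 ± 0.25 and hmbsb by -0.70 ± 0.23, and all 3 were called by limma (adjusted p = 5.66e-08, 0.0042 and 0.0066). These calls held in the 8 alternatives and when each control was left out in turn, all of them with scaled libraries. Before scaling, fech had 102 to 199 reads in control livers and 121 to 220 in control intestines. By reads alad had 33 to 110 in control livers against 68 to 544, and hmbsb 98 to 232 against 418 to 917. Without intestine controls 5 and 6 the differences were 1.178 for fech, -1.32 for alad and -0.75 for hmbsb. The copy hmbsa differed by 0.23 with an adjusted p of 0.229, and by 0.07 without those libraries. So alas2, ppox and fech were called higher in control liver, alad and hmbsb lower, and cpox and hmbsa were not called, with ppox resting on the libraries named above.

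Genes around the pathway gave no call in any exposure comparison. Of the mitochondrial transport and cofactor genes 12 were measured, of the iron genes 9, and of the heme degradation, binding and export genes 7, with 0 calls in 192, 128 and 96 tests within a tissue and an unadjusted limma p under 0.05 in 11, 21 and 5. Over all genes and the same 16 comparisons 7.77% of tests had such a p. Beyond the shares against controls given above, it was 3.99% between the low doses of the toxins in liver, and 3.06% and 3.8% between doses of enniatin B and of beauvericin there. In intestine the shares were 1.53% between the low doses, 3.04% between the high doses, and 1.73% and 1.82% between doses of enniatin B and of beauvericin. Between control tissues 5 of the 12 mitochondrial genes were higher in liver and 4 lower, where 31.6% of all genes were called higher and 37% lower. They included slc25a39, the mitochondrial glutathione importer, at 3.52 ± 0.31, and slc25a38b, a copy of the glycine importer that supplies 5-aminolevulinate synthase, at -1.41 ± 0.18. Of the iron genes 7 were higher in liver and 2 lower, among them the transferrin receptors tfr1a (3.30 ± 0.19) and tfr2 (6.20 ± 0.22). All of these genes were called by limma, and the counts in each direction were the same without intestine controls 5 and 6.

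Erythroid genes other than the enzymes are given beside alas2 as a description. The list was chosen with earlier results of these data known, and its genes were read in the same libraries against the same controls. Several of them varied together with alas2 within groups, as given below. The counts by sign are therefore not counts of independent genes. The list held 34 symbols, of which 11 were measured and none was at 0 in every library of a group. In liver, the difference from controls was negative for 10 of 11 after low enniatin B, 9 after high enniatin B, 11 after low beauvericin and 9 after high beauvericin, with medians of -0.78, -0.29, -0.94 and -0.40. Of all genes, 49.4%, 48.7%, 49.1% and 48.9% had a negative difference in the same order. Limma called 2 of them, both after low beauvericin: epor, the erythropoietin receptor, fell by 1.30 ± 0.26 on the log2 scale (adjusted p = 0.0355), and tal1, a transcription factor of blood formation, fell by 1.39 ± 0.29 (adjusted p = 0.0454). The call of epor held in 2 of 11 refits that left out 1 library of the comparison, and that of tal1 in 1 of 11. In intestine 10, 9, 9 and 10 of the 11 were below controls, with medians of -0.47, -0.48, -0.59 and -0.38. Between 48.2% and 48.8% of all genes were below controls there. Without controls 5 and 6 the counts were 8, 7, 10 and 8, with medians of -0.22, -0.11, -0.27 and -0.23.

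The summed level of the 11 erythroid genes in liver ran between 1417 and 2752 normalized counts after low enniatin B, 1643 and 4656 after high enniatin B, 1754 and 2128 after low beauvericin and 1617 and 4397 after high beauvericin, against 2536 to 5613 in controls. In intestine the ranges were 693 to 1098, 798 to 959, 711 to 877 and 671 to 1155, against 825 to 1852 in controls, or 825 to 1333 without controls 5 and 6. All 5 low beauvericin livers lay below the lowest control liver on this sum. In that comparison 0.493% of 25157 single genes were lower without overlap. That share is no background for a sum of 11 genes, and none was computed for such sums. The gene cahz weighs heavily in the sum, with a control liver median of 1516 against 3797 for the sum. The part of red cells in the alas2 differences was not tested, and in whole tissue fewer cells of a type and less RNA per cell cannot be told apart.

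Across libraries, with group means removed, alas2 had higher median correlations with the erythroid genes than cpox and ppox had. Its median Pearson correlation with the 11 genes was 0.54 in liver (29 libraries) and 0.45 in intestine (27 libraries, without controls 5 and 6), with ranges of -0.22 to 0.91 and -0.22 to 0.86 over the genes. Among them gfi1b had -0.22 in liver, and nfe2 had -0.22 and lmo2 -0.15 in intestine. The corresponding medians were 0.29 and -0.15 for cpox and 0.14 and -0.20 for ppox. In liver cpox ranged from -0.12 to 0.46 over the genes. There it exceeded alas2 for nfe2 (0.44 against 0.26), rhag (0.27 against 0.17), lmo2 (0.17 against 0.07) and gfi1b (-0.12 against -0.22), and alas2 was higher for the rest. Over all genes the median correlation of the enzymes lay between -0.016 and -0.003 in liver and between -0.034 and 0.038 in intestine. These are descriptions, with no test, over libraries that share their normalization.

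**Figure D5:**
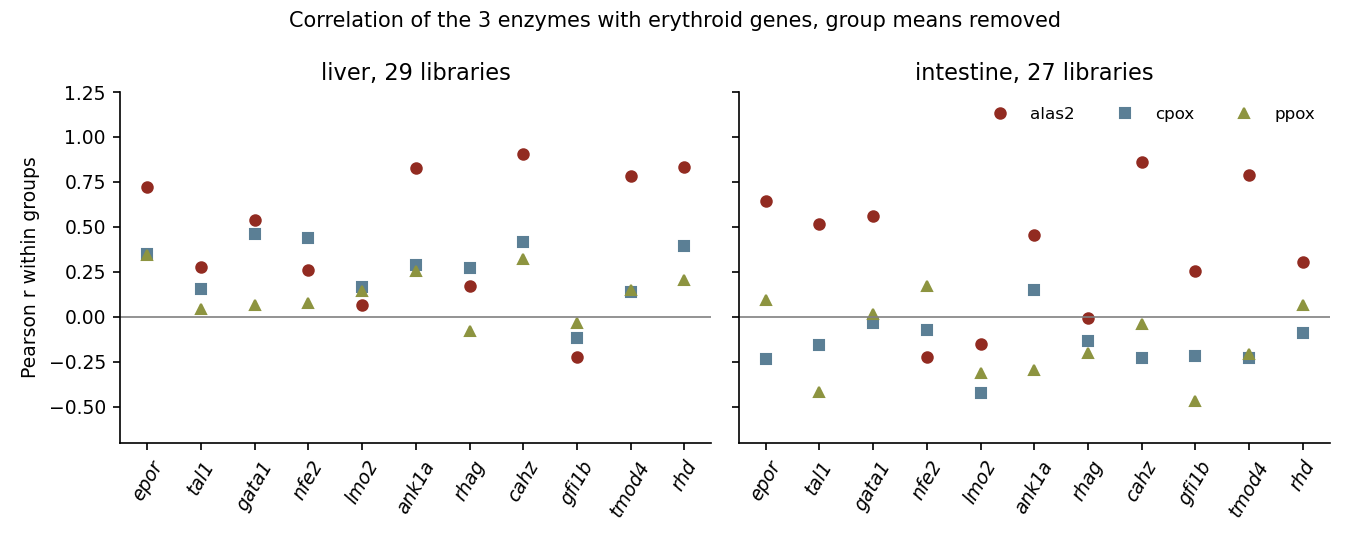
Pearson correlation of alas2, cpox and ppox with each of the 11 measured erythroid genes after removal of group means, over 29 liver and 27 intestine libraries; each column is an erythroid gene and each marker shape an enzyme. The alas2 medians are 0.54 in liver and 0.45 in intestine, and the cpox and ppox medians lie between -0.20 and 0.29.

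The named genes whose values were most like those of alas2 by the same correlation were, in liver, 5ntc (0.92), tssp (0.91), cahz (0.91), selja (0.86) and rhd (0.83). In intestine they were tssp (0.94), cahz (0.86), kel (0.80), tmod4 (0.79) and 5ntc (0.77), so 3 of the 5 were shared between the tissues. Of these, cahz, rhd and tmod4 are on the erythroid list. In other vertebrates cahz encodes a carbonic anhydrase, rhd a Rhesus membrane protein and kel a blood group protein of red cells. For cpox the likest genes were rsph9 (0.70), ud2a2 (0.65), mta3 (0.64), tsfm (0.63) and fgfrl1a (0.60) in liver, and pp2aa (0.80), hsp90b1 (0.78), mrpl14 (0.77), psmg1 (0.76) and ap2m1 (0.75) in intestine. For ppox they were eif4a1a (0.77), pura2 (0.75), oaz1b (0.75), prs6b (0.75) and ing5a (0.74) in liver, and puraa (0.77), rpz4 (0.73), lysmd4 (0.72), sult1st6 (0.69) and ybey (0.68) in intestine. For both late enzymes, 0 of the 5 were shared between the tissues.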

How the data were processed

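The deposited table holds gene counts of 58 libraries divided by size factors, a signal the authors made with DESeq2 1.18.1. Reads were trimmed with Trim Galore 0.4.2, aligned with HISAT2 and counted with featureCounts, per the submitters' processing notes. The aligner version, genome build and strand setting were not given in the sources used here. Whole reads were recovered: 99.99987% of values lay within 0.1 read of a whole number. Gene names came from the NCBI Ssal_v3.1 annotation, which matched 24184 GeneIDs and gave a name other than a locus number to 7529. Salmon keep many near-identical gene copies, so reads shared between copies are uncertain, and unnamed copies are not analysed here.

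Tests used limma 3.58.1 (trend, robust) in R 4.3.3 on log2(value + 2), for genes with at least 10 in at least 5 libraries. All libraries of a tissue entered each fit, and all 58 the comparisons between tissues. Alternatives were pseudocounts of 1 and 8, no filter, edgeR 4.0.16 and DESeq2 1.42.0 on the recovered reads, 2 groups only, a replicate block, library total as a covariate and libraries left out. The test was checked on simulated counts for low beauvericin against controls. In liver it recovered 20.9% of planted 1.5-fold changes, 58.2% of 2-fold and 87.9% of 4-fold changes. In intestine it recovered 9%, 50.7% and 86.4%. Of its calls on the simulated counts, 6.7% in liver and 8.5% in intestine were false. Genes were drawn independently, with the same mean in all groups apart from the planted changes. Divergent control libraries and correlated genes were therefore not simulated, and the rates on the real data may differ. Genes named are the 3 enzymes, the other measured heme enzymes, up to 4 called genes per list and comparison, and the 5 named genes most like each enzyme. The members and lists were chosen with earlier results of these data known. No 2 libraries of the same group agreed within counting noise.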

Additional observations from a re-analysis of the deposited data

Results flagged for a closer look

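In each group of 5 or 6 libraries, the highest and lowest value of alas2, cpox and ppox were set against Dixon's 95% critical value. Of 30 gene and group pairs 2 passed, and chance gives about 1 in 20. In liver after low beauvericin, cpox had 536 normalized counts in replicate 4, above the 365 to 407 of the other libraries. In liver controls, ppox had 375 normalized counts in replicate 6, the lowest of the group.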

How the results depend on the processing

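Of 576 values recomputed for alas2, cpox and ppox under other settings, 551 kept their direction and their side of the threshold, 22 reversed in sign, 2 lost a call and 1 gained one. DESeq2 called alas2 in intestine after low beauvericin, at -1.78, among the 1598 genes it called there. With library total as a covariate, 3 intestine differences turned: ppox after high enniatin B to -0.083 against controls and -0.084 against high beauvericin, and alas2 between those toxins to 0.091. Without intestine controls 5 and 6, with or without low enniatin B replicate 3 also left out, ppox against intestine controls was -0.13 after high enniatin B, -0.12 after low beauvericin and -0.16 after high beauvericin. The ppox call between control tissues was lost at 0.099. In the same refits the change in liver minus that in intestine became 0.055 for ppox after high enniatin B, 0.16 for ppox after low beauvericin, -0.41 for alas2 after low beauvericin and -0.37 for alas2 after high beauvericin. The intestine correlation of alas2 with cpox became 0.0093 without its 2 farthest libraries. With low enniatin B replicate 3 left out as well, cpox between the low doses in intestine was -0.024. For alas2, the change in liver minus that in intestine was 0.18 by edgeR and 0.19 by DESeq2 after low enniatin B, and 0.52 and 0.53 after high enniatin B. The cause was not tested for these.

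Leaving out each library in turn gave 876 values, of which 813 stayed as reported, 57 reversed and 6 lost a call. The change of alas2 in liver minus that in intestine ran between -0.708 and 0.076 for low enniatin B, -0.521 and 0.263 for high enniatin B, -0.373 and 0.411 for low beauvericin and -0.332 and 0.452 for high beauvericin. For cpox it ran between -0.065 and 0.097 for low and -0.0033 and 0.188 for high enniatin B, and for ppox between -0.160 and 0.041 for low beauvericin. Enniatin B minus beauvericin in alas2 ran between -0.441 and 0.1001 at the high dose in liver, -0.016 and 0.348 at the low dose in liver, and -0.249 and 0.252 at the high dose in intestine. At the low dose in intestine cpox ran between -0.024 and 0.115, and at the high dose ppox between -0.015 and 0.118. High minus low enniatin B in liver ran between -0.115 and 0.061 for cpox and -0.042 and 0.069 for ppox. Against controls, ppox ran between -0.011 and 0.189 in intestine after high enniatin B, -0.040 and 0.160 in intestine after high beauvericin, and -0.051 and 0.079 in liver after low beauvericin. The ppox difference between control tissues ran between 0.220 and 0.420. The cause was not tested.

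Against liver controls, edgeR and DESeq2 called 0 and 5 genes after low enniatin B, 0 and 2 after high enniatin B, 21 and 90 after low beauvericin and 0 and 36 after high beauvericin, where limma called 0, 0, 32 and 0. Against intestine controls they called 631 and 1569, 569 and 1403, 371 and 1598, and 544 and 1299 in the same order, where limma called 0, 0, 4 and 1. At the high dose in liver DESeq2 called 46 genes between the toxins, where limma and edgeR called 0. For the difference between tissues in the change, edgeR called 268, 304, 298 and 405 genes and DESeq2 529, 559, 793 and 750, where limma called 0, 0, 7 and 1. With library total as a covariate limma called 63 genes in intestine after low beauvericin. Libraries with the same replicate number did not deviate together within a tissue (median correlation 0.006 in liver and -0.002 in intestine). Between the tissues the same treatment and number gave a median of 0.20, with 27 of 29 pairs over 0.1, and 24 of 29 liver libraries correlated best with their own number, a hint from the data and not from the labels. A replicate block changed no call of the 3 genes: alas2 in liver after low enniatin B stayed at -1.02 with a limma adjusted p of 0.9999, and ppox between control tissues at 0.30 with 0.0123. It moved the limma calls after low beauvericin to 47 in liver and 7 in intestine. Each alas2 value rested on at least 142 reads, and its intervals come from the spread between 5 or 6 libraries a group.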
